A study of Mus musculus with 21 samples.

Results

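The myosin motor of the heart was described through 7 genes chosen by name: the heavy chains Myh6, Myh7 and Myh7b, the light chains Myl2 and Myl3, the thick filament protein Mybpc3 and the light chain kinase Mylk3. All 7 were found among the 20960 genes of the count table. RNA had been measured in hearts of wild-type adult male mice that were given polystyrene nanoplastics for 8 weeks (4 mice) or distilled water (3 mice, the controls). Each heart was divided into an atrial, a right ventricular (RV) and a left ventricular (LV) section, which gave 21 libraries, 1 for each section of each mouse. The labels give no particle size or dose, strain or age in weeks, and each library is a bulk sample, in which fewer cells of a type and less RNA per cell cannot be told apart.

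Muscle contracts when myosin heads on the thick filament pull on actin. Each head is a heavy chain with an essential and a regulatory light chain bound to its neck. The adult mouse heart relies on the fast alpha heavy chain (Myh6), whereas the slower beta chain (Myh7) dominates before birth, and a shift of the balance towards Myh7 is a widely used sign of a stressed rodent heart. Thyroid hormone is known to favour Myh6 over Myh7. Myl2 and Myl3 are the regulatory and essential light chains of the ventricle, and Myl7 and Myl4 are their atrial counterparts. Mybpc3 encodes cardiac myosin binding protein C, which restrains the heads, and Mylk3 encodes the cardiac kinase that phosphorylates the regulatory light chain. Myh7b encodes a further heavy chain that is little translated in the mammalian heart.

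Myh6 and Myh7 lie next to each other on chromosome 14, and each heavy chain gene carries a microRNA in an intron. The 3 microRNAs are shown because they tie the genes together in sequence, with the seed (bases 2 to 8) in capitals, 5′ to 3′, from RefSeq on GRCm38.p6. The libraries did not measure them.
mmu-miR-208a-3p, within Myh6: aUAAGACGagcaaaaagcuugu
mmu-miR-208b-3p, within Myh7: aUAAGACGaacaaaagguuugu
mmu-miR-499-5p, within Myh7b: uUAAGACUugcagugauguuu
The microRNAs of Myh6 and Myh7 had the same seed and differed at 3 of 22 bases, and the Myh7b microRNA had another last seed base.

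The 250 bases before a RefSeq start are shown for Myh6, Myh7 and Myl3, since the ventricular treatment differences of the heavy chain pair and of Myl3 had opposite signs. They are written 5′ to 3′ on the gene's own strand, and the capitals mark CATTCC or its reverse complement GGAATG, the core of the M-CAT element that TEAD factors bind in muscle genes.
Myh6, chr14:54966608-54966857, minus strand: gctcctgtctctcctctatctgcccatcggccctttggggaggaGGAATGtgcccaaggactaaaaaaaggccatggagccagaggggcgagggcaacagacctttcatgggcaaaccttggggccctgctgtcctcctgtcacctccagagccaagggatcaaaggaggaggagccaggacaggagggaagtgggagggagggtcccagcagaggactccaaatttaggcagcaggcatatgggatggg
Myh7, chr14:54994627-54994876, minus strand: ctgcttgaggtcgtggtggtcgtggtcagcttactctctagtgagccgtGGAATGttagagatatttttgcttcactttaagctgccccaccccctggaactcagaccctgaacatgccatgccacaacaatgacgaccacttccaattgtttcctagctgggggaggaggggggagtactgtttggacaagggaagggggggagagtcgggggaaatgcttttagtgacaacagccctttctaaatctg
Myl3, chr9:110763428-110763677, plus strand: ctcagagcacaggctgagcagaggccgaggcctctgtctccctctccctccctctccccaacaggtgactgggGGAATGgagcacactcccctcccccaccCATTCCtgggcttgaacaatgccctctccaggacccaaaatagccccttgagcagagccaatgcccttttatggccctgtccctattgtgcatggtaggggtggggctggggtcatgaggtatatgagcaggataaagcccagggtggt
The match lay 206 bases before the start of Myh6 and 201 bases before the Myh7 start shown, and the 2 matches of Myl3 lay at 177 and 149 bases. Myh7 has 2 starts in RefSeq, and the window of the other one, chr14:54994550-54994799, held 0 matches. Searched on both strands, 4 of the 10 windows of the 7 genes held these letters (the fourth was 1 of 2 windows of Mylk3), against 12.6% of 32851 mouse windows of that length. Myh7, Myl2 and Mylk3 gave 2 windows each. Those of Myl2 lie upstream of its main annotated start, so the bases before that start were not searched. They held 0 matches, are counted among the 10 and are not shown. No test was run on this share. A match of letters describes the window and does not show that a factor binds there.

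Depth differed widely between libraries. Totals ran from 841786 to 2275813 counts in the 4 nanoplastics atria and 990954 to 1286523 in the 3 control atria. In RV they ran from 4662 to 813585 counts in nanoplastics mice and 1333133 to 2042568 in controls, and in LV from 924621 to 1689813 counts in nanoplastics mice and 413436 to 2439314 in controls. The RV library of nanoplastics mouse 2 held the 4662 counts, so a single count there stood for 214.5 CPM (counts scaled to a common library size). It entered the tests, but no level is given for it. Levels below are CPM with TMM scaling (a correction for differences in RNA composition) over the other 20 libraries. The median annotated transcript length per count was 1318 to 1598 nt in the other 11 nanoplastics libraries, 1825 nt in that low library, and 1633 to 1796 nt in the 9 control libraries.

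The section labels were compared with marker genes. The 5 atrial muscle markers (Myl7, Myl4, Sln, Bmp10 and Kcnj3) summed to 39020, 79.01, 29.30 and 2995 CPM of library totals in the atria of nanoplastics mice 1 to 4, against 43.68, 325.9 and 71.51 CPM in the atria of control mice 1 to 3. Bmp10 had 2 counts in all 21 libraries together. Most libraries labelled atrial were therefore low in atrial muscle markers, and the LV library of nanoplastics mouse 4 held 1626 CPM of them, more than 5 of the 7 atrial libraries. With TMM scaling, the atrial light chain Myl7 ranged from 3.463 to 14690 CPM in nanoplastics atria and from 9.685 to 84.1 CPM in control atria.

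The light chains had the highest mean levels of the 7 messages. Per kilobase of the longest annotated transcript, mean levels over the 20 libraries were 11600 CPM for Myl2 and 7553 CPM for Myl3. Myh6 followed at 398.8 CPM per kilobase, then Mybpc3 at 74.43, Mylk3 at 52.15, Myh7 at 8.785 and Myh7b at 0.4236. On this scale the ranges over libraries overlapped between Myl2 and Myl3 and between Mybpc3 and Mylk3, and the other neighbours in this order did not overlap. Without division by length, means were 10320 CPM for Myl2, 8497 CPM for Myl3 and 2438 CPM for Myh6. Myh6 (up to 5533 CPM) then overlapped Myl3 (from 5234 CPM). Whether counts scale with transcript length in these libraries was not tested. The 7 genes took 1.61% to 2.74% of counts in nanoplastics libraries and 1.86% to 2.66% in control libraries.

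**Figure D1:**
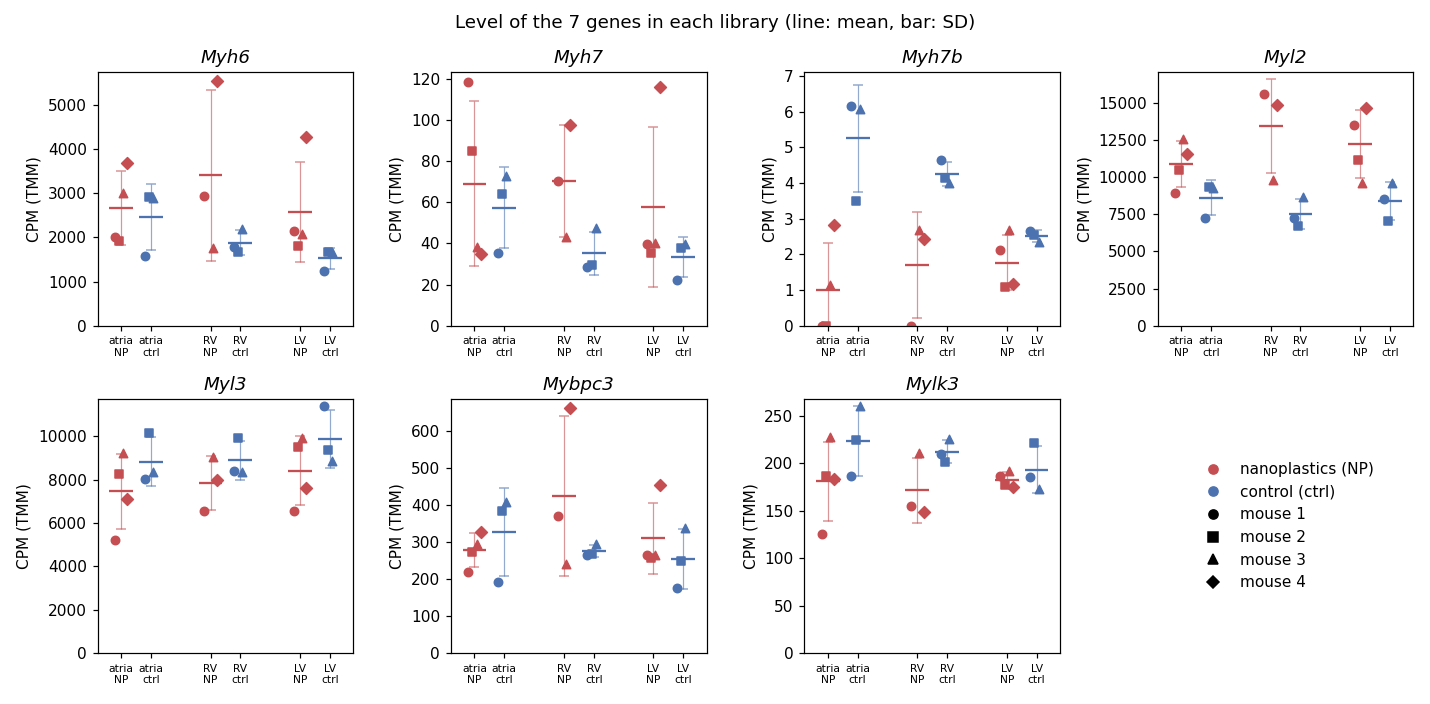
Level of each gene in CPM (linear axes from 0) in each of 20 libraries by section, nanoplastics in red and control in blue, with the mean as a line, the SD as a bar and a symbol for each mouse number. The mean of Myl2 is higher in nanoplastics mice in each section, and Myh6 is highest in mouse 4 of the nanoplastics group in each section.

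The ventricular regulatory light chain Myl2 was the gene of the set that changed over the heart as a whole. With the 3 sections of a mouse summed, Myl2 stood at 12440, 10700, 10550 and 12470 CPM in nanoplastics mice 1 to 4, against 7617, 7291 and 8921 CPM in control mice 1 to 3. Every nanoplastics heart lay above every control heart, as did 7.88% of the genes tested. Myl2 rose by 0.54 ± 0.11 on the log2 scale (SE, n = 4 and 3 mice), a fold of 1.453, at an adjusted p of 0.02497 from edgeR's quasi-likelihood test with Benjamini-Hochberg adjustment. It was the 1 gene of the 7 called higher, and none was called lower, where 2.56% of 8485 genes were called, 1.79% higher and 0.766% lower.

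The size of the Myl2 change depended on scaling. Calls over all genes were 152 higher and 65 lower with TMM, and 43 higher and 754 lower under library totals. TMM factors were 0.816 to 0.976 in nanoplastics libraries and 0.93 to 1.15 in control libraries. Under library totals alone the median of all genes was -0.271 on the log2 scale and Myl2 was at 0.29 (adjusted p = 0.07306), which is 0.56 above that median. Myl2 has a short transcript (889 nt), and with the trend on transcript length removed from each library the change was 0.29 (adjusted p = 0.1683). Myl3, at 1125 nt nearly as short, was at -0.35 in that fit. The Myl2 call was also lost without control mouse 2 (0.49, adjusted p = 0.145), nanoplastics mouse 1 (0.50, adjusted p = 0.0512) or nanoplastics mouse 2 (0.58, adjusted p = 0.0548), and DESeq2 kept it (0.57, adjusted p = 0.00161). Calls over all genes fell without these mice too. They were 0 higher and 0 lower without control mouse 2, 25 and 7 without nanoplastics mouse 1, and 20 and 6 without nanoplastics mouse 2. DESeq2 called 284 and 49.

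By section, Myl2 was above the controls everywhere on average. In LV it stood at 13510, 11140, 9577 and 14660 CPM in nanoplastics mice 1 to 4, against 8512, 7064 and 9590 CPM in control mice, so the ranges met only at nanoplastics mouse 3 and control mouse 3. The LV difference was 0.52 ± 0.14 log2 (adjusted p = 0.1381 by edgeR), while DESeq2 gave 0.54 at an adjusted p of 0.03303. Over all genes in LV, DESeq2 called 72 higher and 8 lower, against 2 and 1 by edgeR. In RV the values were 15600, 9834 and 14860 CPM in nanoplastics mice 1, 3 and 4, all above the 7230, 6715 and 8647 CPM of control mice, as in 10.6% of the genes tested without the low library. With that library in the fit, where it gave 41 counts of Myl2, the RV difference was 0.58 ± 0.52 log2 (adjusted p = 0.6815), and without it 0.82 (adjusted p = 0.02893). Calls over all genes in RV were 58 higher and 10 lower without that library, against 27 and 12 with it. In atria Myl2 ranged from 8953 to 12570 CPM in nanoplastics mice and from 7247 to 9329 CPM in controls, a difference of 0.32 ± 0.18 log2 (adjusted p = 0.4959). The atrial comparison called 0% of 5502 genes by edgeR, with 674 at an unadjusted p under 0.05, and DESeq2 called 93 genes higher and 1 lower.

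The essential light chain Myl3, the partner of Myl2 on the same head, was not called in any comparison. Whole hearts held 6153, 8782, 9424 and 7167 CPM in nanoplastics mice 1 to 4, against 9381, 9578 and 8304 CPM in control mice 1 to 3, and the ranges overlapped. The log2 difference was -0.21 ± 0.13 (adjusted p = 0.4387), and by section it was -0.26 in atria, -0.34 in RV and -0.25 in LV, none of them called.

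Within a library, where scaling cancels, Myl3 was also set against Myl2. Nanoplastics hearts held 49.46, 82.04, 89.34 and 57.48 Myl3 counts per 100 Myl2 counts, against 123.2, 131.4 and 93.08 in control hearts. Atria of nanoplastics mice held 58.46, 79.21, 73.5 and 61.24 per 100, and those of control mice 110.8, 108.7 and 89.9. In RV the values were 42.1, 91.83 and 53.65 in nanoplastics mice 1, 3 and 4, against 116.2, 148.1 and 96.6 in controls. The groups did not overlap in whole hearts, atria or RV, and how many other pairs of genes do likewise was not computed. Single genes did so in whole hearts in 7.88% (nanoplastics higher) and 8.17% (nanoplastics lower) of those tested. In LV the groups met: 48.61, 85.52, 103.8 and 51.98 in nanoplastics mice, against 134.1, 132.8 and 92.6 in controls. The low RV library had 47 Myl3 and 41 Myl2 counts, which is 114.6 per 100. This ratio was chosen after its values were seen and was not tested. It describes the 2 genes together and does not say which one differed.

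**Figure D2:**
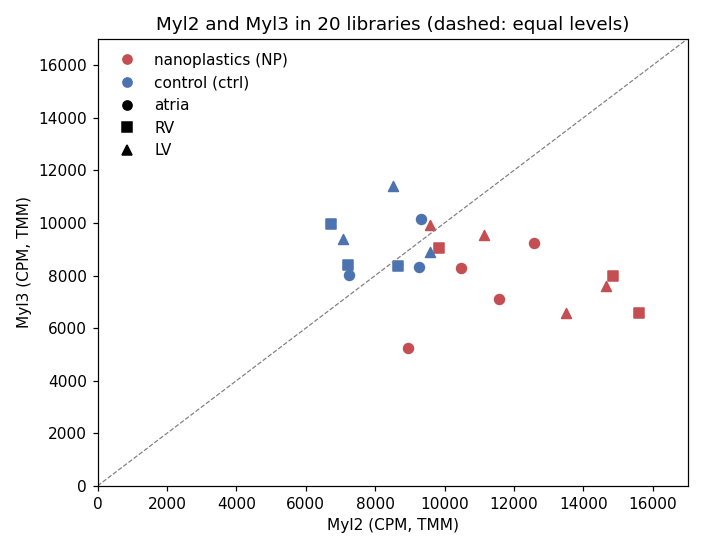
Myl3 against Myl2 in 20 libraries (CPM, linear axes), nanoplastics in red and control in blue, with a symbol for each section and a dashed line where the 2 genes are equal. Nanoplastics libraries lie to the lower right, and 1 of them, the LV of mouse 3 (9937 against 9577 CPM), lies above the line. The libraries of control mouse 3 lie below the line in atria (8338 against 9275 CPM), RV (8353 against 8647 CPM) and LV (8881 against 9590 CPM).

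Among the heavy chains, Myh7 rose in RV. The nanoplastics RV libraries of mice 1, 3 and 4 held 30, 32 and 40 Myh7 counts, or 70.24, 42.97 and 97.58 CPM, against 62, 57 and 71 counts, or 28.72, 29.53 and 47.24 CPM, in control mice 1 to 3. The lowest nanoplastics library lay below the highest control library. The log2 change was 0.97 ± 0.25 (n = 4 and 3), a fold of 1.953, at an adjusted p of 0.02335 by edgeR, where 0.869% of 4489 genes were called in either direction and 0.601% higher. Calls over all genes were 27 higher and 12 lower with TMM, 25 and 48 with the size factors of DESeq2, and 11 and 223 under library totals. The call was lost in 10 of 14 alternatives, 2 of which were the same fit without the low library, and among them were DESeq2, which called 0 genes in RV (0.92, adjusted p = 0.9995), and library totals (0.67, adjusted p = 0.158). It was also lost without control mouse 1 (0.84), control mouse 2 (0.86), nanoplastics mouse 1 (0.93), nanoplastics mouse 4 (0.67, adjusted p = 0.3117) or nanoplastics mouse 2 (0.93, adjusted p = 0.0927), whose low library had 1 Myh7 count.

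In the other sections Myh7 did not pass the test. LV levels were 39.63, 35.12, 40.31 and 115.9 CPM in nanoplastics mice 1 to 4, against 22.04, 37.91 and 39.8 CPM in control mice, a log2 difference of 0.81 ± 0.50 (adjusted p = 0.5226). Nanoplastics mouse 4 stood alone there, and without it the difference was 0.28. In atria the levels were 118.3, 84.62, 38.09 and 34.68 CPM in nanoplastics mice, against 35.22, 63.95 and 72.9 CPM in controls. The nanoplastics atria ran from just below to well above the control range, and the difference was 0.21 ± 0.42 log2. Over whole hearts Myh7 averaged 58.47 ± 12.57 CPM in nanoplastics mice and 41.09 ± 14.99 CPM in controls (SD, n = 4 and 3), a log2 difference of 0.53 ± 0.23 (adjusted p = 0.2467).

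Myh6, the main adult chain, was not called in any comparison by edgeR with the filter on low counts. In LV it stood at 2145, 1813, 2080 and 4264 CPM in nanoplastics mice 1 to 4, against 1245, 1660 and 1676 CPM in control mice 1 to 3. These groups did not overlap, as was so with nanoplastics higher for 6.21% of genes tested. The difference was 0.74 ± 0.33 log2 (adjusted p = 0.3901 by edgeR and 0.03185 by DESeq2). Without the filter edgeR called it (0.77, adjusted p = 0.0006258), and without nanoplastics mouse 4 it was 0.39. Over all genes in LV, DESeq2 called 72 higher and 8 lower, and edgeR without the filter called 14 and 16. With the filter, edgeR called 0.0551% of 5440 genes in LV and none of the 7. In RV the levels were 2946, 1750 and 5533 CPM in nanoplastics mice 1, 3 and 4, against 1776, 1662 and 2198 CPM in controls, a difference of 0.68 ± 0.40 log2 (adjusted p = 0.4707). In atria they were 2019, 1927, 2998 and 3679 CPM in nanoplastics mice and 1588, 2904 and 2894 CPM in controls, a difference of 0.09 ± 0.26 log2. Myh6 was highest in nanoplastics mouse 4 in each section.

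The balance of Myh7 to Myh6 showed no difference between treatments that passed its test, but none of the 7 ratio tests could pass after adjustment. With so few mice, the smallest possible p values are too large for that. In RV and LV the tests could not reach 0.05 even before adjustment. Whole hearts held 3.07, 3.402, 1.768 and 1.551 Myh7 counts per 100 Myh6 counts in nanoplastics mice 1 to 4, against 1.797, 2.102 and 2.359 in control mice 1 to 3. The hearts of nanoplastics mice 1 and 2 lay above all controls and those of mice 3 and 4 below all of them. These ratios pool sections that gave unequal shares of a heart's counts: atria gave 27.56%, 55.25%, 30.44% and 62.55% of counts in nanoplastics mice 1 to 4, against 19.03%, 20.18% and 42.42% in control mice 1 to 3. In nanoplastics mouse 2, atria held 105 of the 138 Myh7 counts, and mouse 4 had the lowest pooled ratio and the highest LV ratio. The mean log2 ratio differed by 0.16 (exact two-sided permutation test over 35 splits, p = 0.6286, adjusted p = 0.9429 over 7 ratio tests, smallest possible p 0.02857).

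The widest spread was in the atria. There the ratios were 5.857, 4.391, 1.271 and 0.9427 per 100 in nanoplastics mice 1 to 4, with SD 2.399 around 3.115, against 2.219, 2.202 and 2.519 in controls, with SD 0.1783 around 2.313. As a share of the pair, Myh7 was 5.533% (95% Wilson interval 4.552 to 6.71) in nanoplastics mouse 1 and 0.9339% (0.7446 to 1.171) in mouse 4. These mice were the extremes, and the intervals treat each count as a separate molecule. The summed atrial markers in these libraries stood at 39020, 79.01, 29.30 and 2995 CPM in nanoplastics mice 1 to 4, and their part in the ratio was not tested. The atrial difference between treatments was 0.03 (exact permutation p = 0.9429).

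RV libraries held 2.385, 2.456 and 1.764 per 100 in nanoplastics mice 1, 3 and 4, against 1.618, 1.776 and 2.149 in controls, a log2 difference of 0.26 (exact permutation p = 0.3, smallest possible 0.1). LV libraries held 1.848, 1.937, 1.938 and 2.719 in nanoplastics mice, against 1.771 and 2.284 in control mice 1 and 2, a difference of 0.06 (exact permutation p = 0.8, smallest possible 0.06667). LV of control mouse 3, with 733 counts of the pair and a ratio of 2.374, and the low RV library, with 14, were below the minimum of 1000 counts and left out. The rise of Myh7 in RV stood beside a Myh6 difference of the same sign, and the RV ratio test could not reach 0.05 with 20 splits. Both genes are alike in sequence over long stretches, and how the counting treated shared reads is not given in the sources used here.

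**Figure D3:**
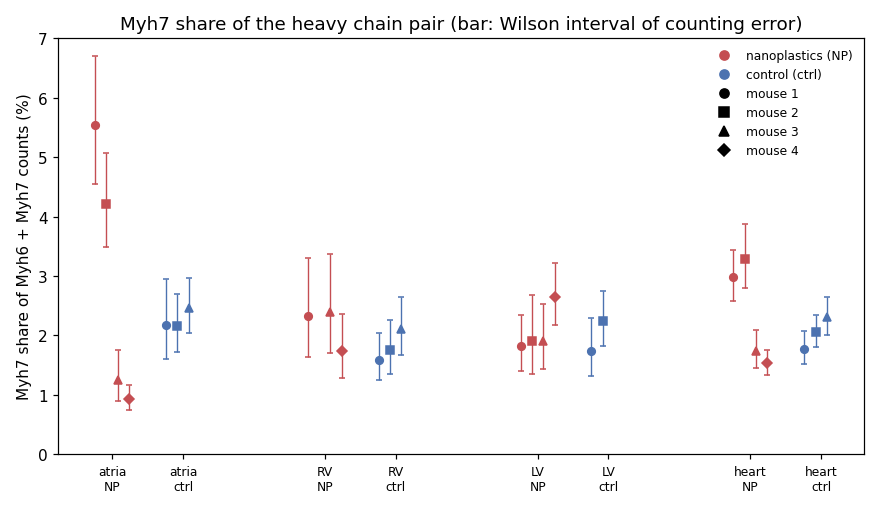
Myh7 share of the summed Myh6 and Myh7 counts in percent (axis from 0), by section and for the whole heart, nanoplastics in red and control in blue, with a symbol for each mouse number and the 95% Wilson interval of counting error as a bar. Atria of nanoplastics mice span 0.9339% to 5.533%, while control atria span 2.155% to 2.457%.

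Myh7b was near the limit of detection. Its counts in atria were 0, 0, 1 and 6 in nanoplastics mice 1 to 4, against 7, 4 and 9 in control mice 1 to 3. Over whole hearts it had 3, 1, 6 and 8 counts in nanoplastics mice, or 1.13, 0.462, 2.19 and 2.296 CPM, against 23, 18 and 16 counts, or 4.061, 3.265 and 4.629 CPM, in controls. All nanoplastics hearts lay below all control hearts, as in 8.17% of genes tested. The log2 difference was -1.26 ± 0.41 with an unadjusted p of 0.005928, and it missed the threshold after adjustment over all genes (0.1006 by edgeR). Under library totals it was called (-1.495, adjusted p = 0.03495), where the median of all genes was -0.271. In the sections Myh7b did not pass the filter on low counts, so 6 of the 7 genes were tested there and all 7 in the whole heart.

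Mybpc3 was not called in any comparison with all mice. In RV it stood at 369.9, 240.4 and 661.1 CPM in nanoplastics mice 1, 3 and 4, against 263.6, 268.3 and 294.7 CPM in controls, with nanoplastics libraries on both sides of the control range. The log2 difference was 0.63 ± 0.25 (adjusted p = 0.1954), and without nanoplastics mouse 3 it was 0.92 (adjusted p = 0.03789). Without that mouse 106 genes were called higher and 69 lower in RV, against 27 and 12 with all mice. Atria differed by -0.25 ± 0.24, LV by 0.30 ± 0.24 and whole hearts by 0.11 ± 0.17 log2, none of them called, and the whole-heart value was -0.15 under library totals. Mylk3 was lower on average in nanoplastics mice in each section and passed no test: whole hearts held 162.4, 182.5, 207.3 and 173 CPM in nanoplastics mice and 191.7, 211 and 231.2 CPM in controls, a difference of -0.22 ± 0.13 log2 (adjusted p = 0.4052). Under library totals Mylk3 was called, at -0.47 (adjusted p = 0.0378), which is 0.20 below the median of all genes in that fit.

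**Figure D4:**
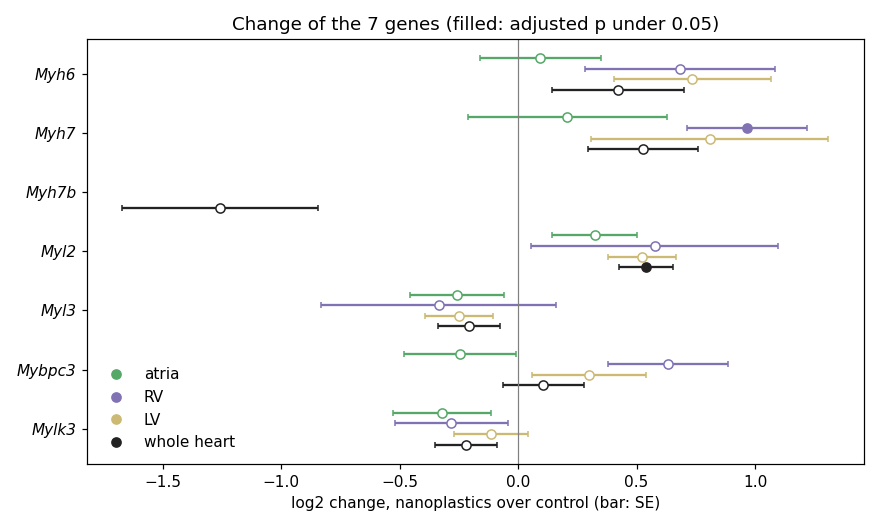
Log2 change of each gene in nanoplastics over control mice (horizontal axis) with its SE as a bar, for the 3 sections and the whole heart, filled where the adjusted p is under 0.05. The filled points are Myh7 in RV (0.97) and Myl2 in the whole heart (0.54), and Myl3 and Mylk3 are below 0 in all 4 comparisons.

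None of the 7 genes was called between sections. The ventricular light chain Myl2 averaged 9916 ± 1776 CPM in atria, 10480 ± 3845 CPM in RV and 10580 ± 2713 CPM in LV (SD, n = 7, 6 and 7), a level in the libraries labelled atrial like that in ventricles. Atria against LV differed by -0.05 ± 0.10 log2 (adjusted p = 0.8782, fitted within mice). Myh6 had the smallest p of the set, 0.34 ± 0.11 higher in atria than in LV (unadjusted p = 0.006664, adjusted p = 0.2228), where 0.155% of 5176 genes were called. Mybpc3 was 0.27 ± 0.11 higher in RV than in LV (adjusted p = 0.7635), where 0.02% of 5012 genes were called. Atria against RV called 0.606% of 4954 genes.

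Without nanoplastics mouse 4, Myh7 passed the test in atria over LV (0.89, adjusted p = 0.007264) and in atria over RV (0.60, adjusted p = 0.02026), against 0.47 and 0.27 with all mice. Leaving out that mouse raised calls over all genes as well. In atria over LV they were 71 higher and 27 lower, against 8 and 0 with all mice. In atria over RV they were 76 and 16, against 26 and 4. The Myh7 to Myh6 ratio was higher in atria than in LV in 3 of 6 mice and higher in atria than in RV in 4 of 6, with exact sign-flip p of 0.8125 and 0.875. In RV it was higher than in LV in 2 of 5 mice (exact sign-flip p = 0.6875). These section tests are among the 7 ratio tests that could not pass after adjustment. The treatment effect itself did not differ detectably between sections: for the 6 genes tested the difference of effects between atria and LV ran from -0.56 (Myh6) to -0.02 (Myl3), and that between RV and LV from -0.22 (Mylk3) to 0.25 (Myh7), with no call among 6269 genes by edgeR in either. At an unadjusted p under 0.05 there were 345 genes for atria and LV and 188 genes for RV and LV, and DESeq2 called 1 gene and 0 genes.

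Across the 20 libraries, which share mice and differ in depth, the genes fell into patterns that are given as description. Both treatments are pooled, and their median transcript lengths per count do not meet (1318 to 1598 nt with nanoplastics, 1633 to 1796 nt in controls). The part of treatment or transcript length in the correlations was not tested. Myh6 correlated with Mybpc3 (Pearson r = 0.881 of log2 CPM), Myl2 (0.723) and Myh7 (0.621), whereas Myl3 correlated with Mylk3 (0.589) and ran against Myh7 (-0.566) and Myl2 (-0.391). Among 4885 genes with a mean of at least 10 CPM, the genes most like Myh6 were Actn2 (0.901), which encodes the Z-disc protein alpha-actinin, Mybpc3, and Nrap (0.865), a protein of myofibril assembly. Most like Myl2 were Cox6a2 (0.928), a muscle subunit of cytochrome oxidase, and the entries named Atp5o_2 (0.905) and Gm5436 (0.881). Most like Myh7 were Icam2 (0.786), an endothelial adhesion molecule, Clu (0.761), which encodes clusterin, and Eef1d (0.748), an elongation factor subunit.

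No other gene of the thick filament was called between treatments. Of 30 further heavy chain, light chain and thick filament genes, 24 were in the table and 15 were tested in whole hearts, with none called at the 0.05 threshold by edgeR, 1 at an unadjusted p under 0.05 and a median log2 difference of 0.11. Over all 8485 genes, 1541 had an unadjusted p under 0.05 and 3952 were on the higher side. The corresponding median was 0.11 for the 7 genes and -0.03 for all 8485 genes. The atrial light chains Myl7 (6.71 ± 2.77 log2, adjusted p = 0.2969) and Myl4 (5.93 ± 2.42, adjusted p = 0.2916) had the largest differences in the list and were named after their values were seen, and both are among the atrial markers whose sums were high in nanoplastics mice 1 and 4. Between sections Myl9, a light chain of smooth muscle, was the gene of these lists that was called, at 1.58 ± 0.20 log2 higher in atria than in RV (adjusted p = 5.312e-09 by edgeR). Calls over all genes there were 26 higher and 4 lower, against 0 without mice as a block and 2 and 2 with DESeq2. Myl9 ranged from 9.45 to 180.5 CPM in control atria and from 9.979 to 35.21 CPM in control RV. In nanoplastics mice it ranged from 37.49 to 128.1 CPM in atria and from 14.05 to 29.54 CPM in RV. The smooth muscle markers tested there were Acta2 (1.75 ± 0.50, adjusted p = 0.4481) and Tagln (1.54 ± 0.55, adjusted p = 0.5622), both higher in atria on average, and their part in the Myl9 difference was not tested.

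Of 19 genes for kinases, phosphatase subunits and assembly or turnover factors of myosin, 17 were tested in whole hearts and none was called by edgeR, with 7 at an unadjusted p under 0.05, 4 of 17 on the higher side and a median of -0.23. Named after their values were seen, these included Mylk4, a myosin light chain kinase family member (-0.56 ± 0.17, adjusted p = 0.07273), and Trim63, a ubiquitin ligase of sarcomere proteins (-0.53 ± 0.21, adjusted p = 0.1851). Of 30 transcription and chromatin regulators linked to myosin genes, 26 were tested, none was called, 3 had an unadjusted p under 0.05 and the median was -0.12. Beside both lists, all 8485 genes had 1541 at an unadjusted p under 0.05, 3952 on the higher side and a median of -0.03. Thra, the thyroid hormone receptor alpha gene and also named after its values were seen, averaged 5.938 ± 5.213 CPM in RV of nanoplastics mice and 17.71 ± 5.759 CPM in RV of controls (SD, n = 3 each). The RV range was 0 to 9.758 CPM in nanoplastics mice and 13.97 to 24.35 CPM in controls. In those nanoplastics libraries 1 count stood for 1.229 to 2.283 CPM of library totals, so few counts lie behind the values. Groups of this size lie apart often: with nanoplastics higher, 10.6% of 5201 genes did so in RV without the low library. The share with nanoplastics lower in RV is not given here. The log2 difference of Thra in RV was -1.49 ± 0.44 (adjusted p = 0.06114), against -0.84 ± 0.28 in LV (adjusted p = 0.1691) and -0.19 ± 0.32 in atria (adjusted p = 0.8388).

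The general content of heart muscle messages is given beside these values. The 6 cardiomyocyte markers (Tnnt2, Actc1, Tnni3, Actn2, Ryr2 and Ttn) were all on the higher side in whole hearts of nanoplastics mice, with a median log2 difference of 0.38, where 3952 of all 8485 genes were on that side, and Tnni3, which encodes cardiac troponin I, was called (0.53 ± 0.10, adjusted p = 0.01826). Their summed level was 38630 to 50970 CPM of library totals in nanoplastics atria and 35680 to 46120 CPM in control atria, 39940 to 48230 CPM in nanoplastics RV and 37180 to 44360 CPM in control RV, and 38040 to 50620 CPM in nanoplastics LV and 29070 to 42170 CPM in control LV. Among the 5 fibroblast markers, all on the higher side, Dcn, which encodes decorin, was called (0.55 ± 0.15, adjusted p = 0.04655). The 4 red cell markers were on the higher side in RV (median 1.08) and LV (median 1.23) and on the lower side in atria (median -0.24), with none called. The part of cell content in the myosin differences was not tested.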

How the data were processed

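Hearts were perfused, divided into 3 sections and homogenised in TRIZOL, and libraries were made with a plate kit that captures polyadenylated RNA and adds a well barcode at the 5′ end, per the labels' protocols. The authors deposited 1 table of whole-number read counts per gene symbol, with 1 column for each library. Reads were aligned with STAR, with no version given, per the submitters' processing notes. Which build, annotation and counting program were used, and whether strand or molecular identifiers were, is not given in the sources used here.

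From the counts, edgeR 4.0.16 (R 4.3.3, limma 3.58.1) was run with TMM scaling, filterByExpr and robust quasi-likelihood fits, adjusted by Benjamini-Hochberg over all genes tested, with calls at 0.05. DESeq2 1.42.0 was an alternative. Each section was fitted alone, the whole heart on counts summed over the 3 sections of a mouse. Sections were compared within mice, since they come from the same animal (deviations of the sections of a mouse correlated at -0.015 to 0.426). SEs are the log2 change over the square root of F. Levels are TMM-scaled CPM over the 20 libraries above 100000 counts; 1 count stood for 0.41 to 2.419 CPM in them, and marker sums use library totals. The Myh7 to Myh6 ratio used counts plus 0.5 in libraries with at least 1000 counts of both, with exact two-sided permutation tests (Python 3.11.15). Wilson intervals have a level of 95% and cover counting error only. None of 210 pairs of libraries held identical counts. The scripts were tested on simulated data.

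The genes and lists were chosen with earlier results of these data known. The text names all 7 genes, up to 4 called genes per direction of the other myosin lists by smallest p, and the 3 genes most like Myh6, Myh7 and Myl2. Uncalled list genes and cell markers it names (Mylk4, Trim63, Thra, Myl7, Myl4, Acta2 and Tagln among them) fall outside that rule and were chosen after their values were seen. Labels give the mouse number, but nothing on cages or batches. Transcript lengths are the longest GENCODE M21 transcript of a symbol (20504 symbols matched), used per kilobase and for a length correction. Alternatives were other scalings, no filter, DESeq2, a length correction, leaving out each mouse or a doubtful library, the ventricles alone, other ratio settings and the replicate number as a block.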

Additional observations from a re-analysis of the deposited data

Results flagged for a closer look

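In 24 groups of 4 samples, Dixon's criterion picked out 5 values at which 1 sample stood far from the other 3. Chance picks out about 1 in 20 of independent groups, but these groups share mice and libraries. All 5 values belong to nanoplastics mouse 4, so they are not separate events and no excess over chance can be read from them. In LV of nanoplastics mice, mouse 4 was the sample in each case: Mybpc3 was at 454.4 CPM against 256.8 to 264.6 CPM in the other 3 mice, Myh6 at 4264 CPM against 1813 to 2145 CPM, and Myh7 at 115.9 CPM against 35.12 to 40.31 CPM. The Myh7 to Myh6 ratio was 2.719 per 100 in that library against 1.848 to 1.938 in the others. Over whole hearts, Mybpc3 was at 390.8 CPM in nanoplastics mouse 4 against 266.1 to 267.5 CPM in nanoplastics mice 1 to 3. The same LV library held 1626 CPM of summed atrial markers, against 17.75 to 33.76 CPM in LV of the other 3 nanoplastics mice. Its part in these values was not tested.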

How the results depend on the processing

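Of 777 alternatives for 55 single-gene results, 705 kept the direction and the side of the threshold, 46 changed direction, 15 lost a call and 11 gained one; no value that had been called changed direction. The cause of these shifts was not tested unless named. The number of the 7 genes called in RV (1) was 0 under library totals, 0 without the filter, 0 with DESeq2 and 0 with the replicate block, and 0 to 2 with a mouse left out; without nanoplastics mouse 2 the 1 gene was Myl2 and not Myh7. In LV (0) it was 2 without the filter and 2 with DESeq2, Myh6 and Myl2 in both. Calls over all genes also rose in these LV fits, to 14 higher and 16 lower without the filter and 72 and 8 with DESeq2, against 2 and 1. In the whole heart (1, Myl2) the number of the 7 genes called was 2 under library totals (Myh7b and Mylk3) and 0 with the length trend removed. With a mouse left out it was 0 to 1: 0 without control mouse 2 (Myl2 at 0.49), nanoplastics mouse 1 (0.504) or 2 (0.577). Higher and lower calls over all genes without these mice were 0 and 0, 25 and 7, and 20 and 6, against 152 and 65. Atria against LV and atria against RV (0 each) gave 0 to 1 with a mouse left out, Myh7 without nanoplastics mouse 4. Without that mouse, calls over all genes were 71 higher and 27 lower against LV, and 76 and 16 against RV.

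Same-numbered nanoplastics and control mice did not deviate together (r from -0.146 to 0.15), so a number does not pair them. With the replicate block the reversed log2 values were -0.079 (Myh6, atria), -0.018 (Myh6, RV), -0.027 (Mybpc3, whole heart) and -0.082 (LV ratio), and Myh7 in RV was 0.585 (adjusted p = 0.9343). Under library totals, values that changed sign were -0.145 for Myh6 and -0.022 for Myh7 in atria, -0.149 for Mybpc3 in the whole heart, 0.06 for Myl2 in atria over LV, -0.027 for Myl3 in atria over RV, and, for the difference of effects between RV and LV, 0.105 for Myl2 and 0.083 for Myl3. With the length trend removed they were -0.031 for Myl3 in atria over RV and 0.05 for Myl2 and 0.0 for Myl3 in that difference of effects. Without the filter they were -0.017 for Mylk3 in RV over LV and -0.028 for Mybpc3 in the same difference of effects.

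Without the atrial library of nanoplastics mouse 1, Myh7 in atria was -0.159, the ratio was -0.407 in atria, -0.137 in atria over LV and -0.174 in atria over RV, Myl2 in atria over LV was 0.026, and the difference of effects between atria and LV was 0.009 for Myl2 and 0.061 for Myl3. Without the low RV library, Myl2 and Myl3 in atria over RV were -0.029 and -0.076, and the difference of effects between RV and LV was 0.258 and 0.13. With all libraries the ratio was -0.035 in LV, -0.131 in atria over RV and 0.278 in RV over LV.

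With a mouse left out, ranges that crossed 0 were these. In atria, they were -0.13 to 0.251 for Myh6, -0.159 to 0.459 for Myh7 and -0.407 to 0.47 for the ratio. In LV, they were -0.158 to 0.005 for Mylk3 and -0.126 to 0.235 for the ratio. In the whole heart, they were -0.056 to 0.3 for Mybpc3 and -0.026 to 0.352 for the ratio. In atria over LV, they were -0.142 to 0.03 for Myl2, -0.011 to 0.183 for Mybpc3 and -0.137 to 0.5 for the ratio. In atria over RV, they were -0.028 to 0.294 for Myl2, -0.076 to 0.115 for Myl3, -0.31 to 0.043 for Mybpc3 and -0.174 to 0.273 for the ratio. In RV over LV, they were -0.013 to 0.261 for Myh7, -0.038 to 0.082 for Mylk3 and -0.189 to 0.059 for the ratio. For the difference of effects between atria and LV, they were -1.068 to 0.268 for Myh7 and -0.218 to 0.096 for Myl3. For the difference of effects between RV and LV, they were -0.016 to 0.496 for Myh7, -0.22 to 0.257 for Myl2 and -0.308 to 0.14 for Myl3.

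Depth limits Myh7b and Myh7 most, since single libraries held 0 to 10 and 1 to 108 of their counts.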
